A study of Mus musculus with 6 samples.

Results

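The Rtl1-antisense miRNAs are the mature arms of the 5 hairpins miR-431, miR-433, miR-127, miR-434 and miR-136, which lie opposite the gene Rtl1 in the imprinted Dlk1-Dio3 region of mouse chromosome 12. The 10 members were taken by name, as every 5p and 3p row of these 5 hairpins among the 1978 known mature miRNAs of the deposited count table. Names alone set the choice, though it was made with earlier results of these data known. All 10 passed the filter on low counts, as 10 of 619 miRNAs tested.

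Small RNA was sequenced from c-kit+ cardiac progenitor cells (cells of the heart with the surface receptor c-kit, a tyrosine kinase), isolated with antibody-coupled magnetic beads from digested hearts of male wild-type C57BL/6 mice of 4 to 6 weeks. The hypoxia group, called Model in the titles, has 3 libraries of cells labelled 12 hours, and the control group has 3 libraries labelled 0 hours. The treatment field names hypoxia for both groups, no oxygen level is stated, and hypoxia and 12 more hours of culture cannot be told apart. The extraction protocol speaks of exosomes and the design text of cells, a point the labels do not settle.

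Libraries are named by group and by the letter A, B or C of their column. The leading digit of each column, 0 or 1, was read as the 0 hours of the controls and the 12 hours of hypoxia, so the sign of each hypoxia difference depends on it. The letters match no replicate number of the titles, but same-lettered libraries deviated together from their group means (correlations over the 619 miRNAs of 0.52 in A, 0.43 in B and 0.28 in C). The titles call the libraries biological replicates without naming mice or cultures, and a p-value here reflects the variation between these libraries, part of which may be technical. Known miRNAs gave 12285970 to 16975987 counts per library. The table holds miRNAs only, so the c-kit label could not be checked in it. The endothelial miR-126a arms summed to 200661 to 249641 CPM (counts scaled to a common library total), fibroblast and smooth muscle markers to 28760 to 62375 CPM, cardiomyocyte markers to 77.3 to 176 CPM and blood cell markers to 45.9 to 59.8 CPM.

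In the Dlk1-Dio3 region the protein-coding genes Dlk1, Rtl1 and Dio3 are expressed from the paternal chromosome, while the noncoding RNAs Meg3, Rian and Mirg and the miRNAs are expressed from the maternal one. Rtl1 is a gene derived from a retrotransposon that is needed in the placenta. Because the miRNAs are transcribed from the strand opposite to it, each is fully complementary to the Rtl1 mRNA, and in mouse they are known to direct its cleavage in trans. A miRNA hairpin yields a 5p and a 3p arm, usually in unequal amounts, and an arm recognises other mRNAs mainly through its seed, bases 2 to 8 from its 5′ end.

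The 10 mature sequences, from RefSeq on GRCm38.p6, are shown because the results turn on the separate arms, with the seed in capitals.
mmu-miR-431-5p: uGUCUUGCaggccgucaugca
mmu-miR-431-3p: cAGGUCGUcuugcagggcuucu
mmu-miR-433-5p: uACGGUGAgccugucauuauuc
mmu-miR-433-3p: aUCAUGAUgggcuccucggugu
mmu-miR-127-5p: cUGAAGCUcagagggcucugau
mmu-miR-127-3p: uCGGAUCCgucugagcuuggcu
mmu-miR-434-5p: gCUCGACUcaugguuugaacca
mmu-miR-434-3p: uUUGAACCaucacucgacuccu
mmu-miR-136-5p: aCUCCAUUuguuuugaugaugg
mmu-miR-136-3p: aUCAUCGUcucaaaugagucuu

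The 10 arms carried 10 different seeds, and no other mature mouse miRNA of the RefSeq table had any of these seeds or lay within 3 mismatches of a member.

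All 5 hairpins lie on the plus strand within 4942 bases, and each whole hairpin matched the Rtl1 transcript of GENCODE M21 as its reverse complement. Mir431 is at chromosome 12, 109590447 to 109590537, Mir433 at 109591715 to 109591838, Mir127 at 109592846 to 109592915, Mir434 at 109594506 to 109594599 and Mir136 at 109595327 to 109595388. On the opposite strand each falls inside the coding sequence of Rtl1, in exon 2 of 2 (109590169 to 109595403 with the stop codon), and no annotated plus-strand gene of another name overlaps any of them. Rtl1 was the only gene outside the miRNA genes whose annotated transcripts held a full-length complement of any of the 10 arms.

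The hairpin of miR-127, the most abundant of the 5, shows how both arms sit in 1 precursor, with the arms in capitals, and the stretches of the Rtl1 coding sequence that match the most abundant arms show the complementarity, with the bases opposite the seed in capitals.
miR-127 hairpin: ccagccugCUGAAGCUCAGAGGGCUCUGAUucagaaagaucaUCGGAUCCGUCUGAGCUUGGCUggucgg
Rtl1 opposite miR-127-3p: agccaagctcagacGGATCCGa
Rtl1 opposite miR-434-5p: tggttcaaaccatgAGTCGAGc

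The first of these stretches spans positions 2642 to 2663 and the second 1002 to 1023 of the 6358-base Rtl1 transcript, whose coding sequence runs from 148 to 5382.

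Among these arms miR-127-3p led, followed by both arms of miR-434. The arms are 21 or 22 bases long and each read is 1 arm, so levels are set side by side in CPM, here after TMM scaling of library sizes. Efficiencies of adapter ligation that depend on sequence were not measured, so differences in level between arms are differences in recovered reads.

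miR-127-3p, reported to repress Bcl6 in human cells, stood at 4166, 1972 and 1955 CPM in hypoxia libraries A, B and C, against 4262, 1954 and 2414 CPM in control libraries A, B and C. The A library was the high one in each group, and the groups overlapped. miR-127-3p ranked 34 of the 619 tested miRNAs by mean CPM.

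miR-434-5p stood at 1341, 720 and 754 CPM in hypoxia libraries A, B and C, against 1733, 848 and 797 CPM in control libraries A, B and C. Its partner miR-434-3p stood at 427, 200 and 243 CPM in hypoxia and at 425, 176 and 256 CPM in control, in the same order of letters. Again the A libraries stood above the rest and the groups overlapped.

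miR-433-3p, reported to promote cardiac fibrosis in rodents, had 171, 67.5 and 76.1 CPM in hypoxia A, B and C and 178, 67.7 and 91.2 CPM in control A, B and C. Its minor arm miR-433-5p had 12.98, 5.34 and 6.17 CPM in hypoxia and 10.9, 3.38 and 2.86 CPM in control, from 85 to 216 counts in hypoxia and 44 to 135 in control. Hypoxia B and C both exceeded control B and C for miR-433-5p, while control A exceeded them.

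miR-136-3p had 147, 61.0 and 64.4 CPM in hypoxia A, B and C and 134, 55.4 and 50.4 CPM in control A, B and C. miR-136-5p had 54.6, 20.9 and 38.3 CPM in hypoxia and 60.6, 25.2 and 19.1 CPM in control. For miR-136-5p hypoxia C lay between hypoxia A and B, and the groups of both arms overlapped.

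miR-431-5p, known in mouse to repress Pax7 in muscle satellite cells, had 82.3, 42.9 and 49.6 CPM in hypoxia A, B and C and 94.2, 42.0 and 55.6 CPM in control A, B and C. Its partner miR-431-3p stayed between 5.73 and 9.56 CPM in hypoxia and between 5.15 and 13.4 CPM in control. miR-127-5p had 95.1, 39.6 and 41.2 CPM in hypoxia and 91.4, 33.8 and 35.1 CPM in control.

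**Figure D1:**
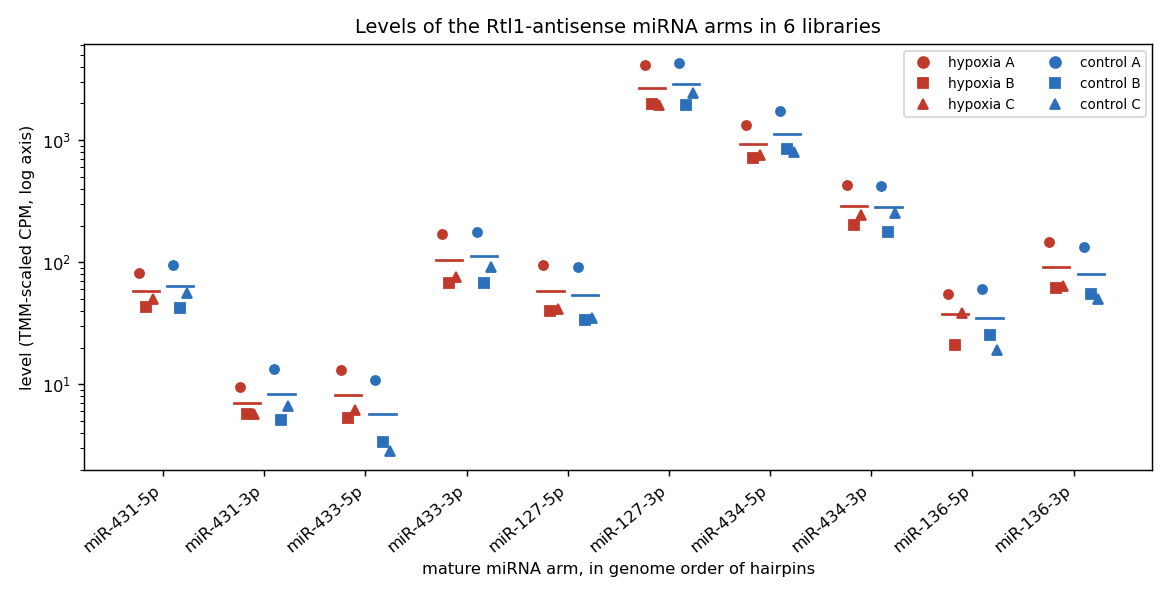
TMM-scaled CPM (log axis) of the 10 arms, hypoxia libraries in red left of control libraries in blue, with circles, squares and triangles for letters A, B and C and lines for group means. The circles lie at the top of each group for all 10 arms.

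By mean CPM over the 6 libraries the order was miR-127-3p, miR-434-5p, miR-434-3p, miR-433-3p, miR-136-3p, miR-431-5p, miR-127-5p, miR-136-5p, miR-431-3p and miR-433-5p. The steps among the first 5 arms, and those from miR-127-5p through miR-136-5p to miR-431-3p, kept their order in 6 of 6 libraries. The neighbours miR-136-3p and miR-431-5p kept it in 5 of 6, as did miR-431-5p and miR-127-5p, whose mean log2 gap of 0.20 was smaller than its SD of 0.29 over the 6 libraries. The lowest 2 arms, miR-431-3p and miR-433-5p, kept it in 4 of 6 (mean log2 gap 0.28, SD 0.58), so they did not differ beyond their spread.

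Summed over the 10 arms, the level was 6507, 3135 and 3233 CPM in hypoxia A, B and C, against 7004, 3211 and 3727 CPM in control A, B and C. The means were 4292 ± 1919 CPM in hypoxia and 4647 ± 2057 CPM in control (SD, n = 3 each), a log2 ratio of -0.11, less than the within-group SD of 0.60 (log2), which holds the difference between letters. Within the letters the log2 ratio was -0.11 in A, -0.03 in B and -0.21 in C, with a mean of -0.12 ± 0.086 (SD, n = 3 pairs). After TMM scaling the sum was thus lower in hypoxia in 3 of 3 pairs, as were 19.7% of single tested miRNAs. Without both A libraries the ratio was -0.12, and leaving out any single library gave values from -0.55 to 0.31. As shares of known miRNA counts the sums were 0.694%, 0.301% and 0.338% in hypoxia A, B and C and 0.704%, 0.288% and 0.386% in control A, B and C. By these shares, without TMM scaling, hypoxia was higher than control in pair B and lower in pairs A and C. The widest exact Clopper-Pearson 95% interval was 0.699% to 0.709%, in control A. These intervals cover counting error alone, and whether PCR duplicates were removed was not stated in the sources used here.

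Relative to their means, the shares of the hairpins varied far less than the total of the cluster, apart from the share of miR-136. miR-127 gave 63.8% ± 1.89 of the 5 hairpins' CPM in hypoxia and 63.3% ± 2.12 in control (SD, n = 3 each), with 61.8% to 65.5% over the hypoxia libraries and 61.9% to 65.7% over the control libraries. miR-434 gave 29.1% ± 1.83 in hypoxia and 30.3% ± 1.89 in control, miR-433 2.57% ± 0.255 in hypoxia and 2.48% ± 0.247 in control, and miR-431 1.56% ± 0.151 in hypoxia and 1.56% ± 0.104 in control (SD, n = 3 each). miR-136 gave 2.96% ± 0.308 in hypoxia and 2.39% ± 0.472 in control, with overlapping ranges of 2.61% to 3.18% and 1.87% to 2.79%. The most abundant hairpin, miR-127, is the middle one of the 5 along Rtl1.

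**Figure D2:**
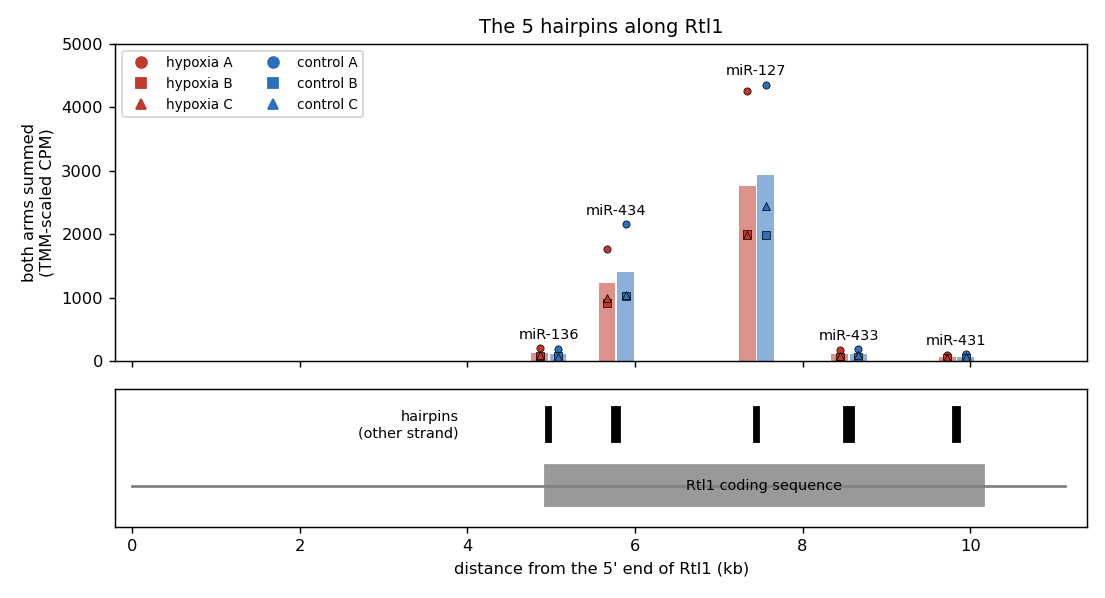
Top, both arms summed (TMM-scaled CPM) for each hairpin, with bars for group means (hypoxia red, left, and control blue) and symbols for the 6 libraries. Bottom, the hairpins on the strand opposite the Rtl1 coding sequence (grey box, with the line marking the whole gene, intron included), against distance in kb from the 5′ end of Rtl1; miR-127 and miR-434 hold most of the signal.

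The sequence of Rtl1 carries hairpins that gave no reads here. miR-432, whose annotated hairpin lies between Mir434 and Mir136 on the plus strand (109594956 to 109595030), had 0 counts in all 6 libraries, and so had both arms of miR-3071, annotated on the Rtl1 strand across Mir136 (109595318 to 109595397). These were named for their position. A count of 0 allowed up to 0.177 to 0.244 CPM per library (3 counts of its total).

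The clearest pattern over libraries was by letter. The A library was the highest of its group for 10 of 10 arms in both hypoxia and control, whereas 24.9% of all tested miRNAs (154 of 619) were highest in A in both groups. For the members the A library exceeded the mean of B and C by a median of 2.03-fold in hypoxia (range 1.66 to 2.39) and 2.25-fold in control (range 1.93 to 3.50), against medians of 0.998 and 0.983 over all tested miRNAs. The within-group SD of log2 CPM ran from 0.54 for miR-431-5p to 0.88 for miR-433-5p, with a median of 0.66, against a median of 0.34 over all 619. Differences between letters were not part of the design and were not tested.

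The rest of the Dlk1-Dio3 region showed the same order of libraries. A list of 14 hairpins outside the miR-379 to miR-410 array is called Meg3-side here for short. It also includes miR-432 and miR-3071 at Rtl1, and miR-341, miR-1188, miR-370 and miR-882 on the far side of Rtl1 from Meg3. The position of its hairpin miR-3070 was not found. Of its 16 arms tested 14 were highest in A in both groups. Of 59 arms tested from the miR-379 to miR-410 array, which begins upstream of the annotated Mirg gene and runs into it, 53 were. The Meg3-side list summed to 592, 299 and 307 CPM in hypoxia A, B and C and 682, 297 and 338 CPM in control A, B and C. The miR-379 to miR-410 list summed to 9595, 4587 and 4664 CPM in hypoxia and 10237, 4710 and 5019 CPM in control. The A library was thus 1.95-fold and 2.07-fold the mean of B and C in hypoxia for these lists, and 2.15-fold and 2.10-fold in control, against 2.04-fold in hypoxia and 2.02-fold in control for the Rtl1-antisense sum.

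Markers of fibroblasts and smooth muscle followed the same letters. All 10 arms of miR-143, miR-145a, miR-199a, miR-199b and miR-214 were highest in A in both groups, and their sum was 56304, 36391 and 30065 CPM in hypoxia A, B and C and 62375, 32321 and 28760 CPM in control A, B and C. miR-199a-3p and miR-199b-3p had identical counts, and both enter the sum. Of the 2 miR-126a arms, 0 were highest in A in either group. Of 6 tested blood cell arms 2 were highest in A in both groups, as were 2 of 4 neural arms. Cardiomyocyte arms had 0 of 4. The neural list, which is mostly miR-128-3p, summed to 454, 474 and 396 CPM in hypoxia and 475, 480 and 422 CPM in control. Its 2 arms highest in A in both groups were miR-9-5p and miR-9-3p. miR-9-5p had 40.3, 27.5 and 23.2 CPM in hypoxia A, B and C and 36.7, 25.6 and 18.3 CPM in control. miR-124-3p, the most neuron-restricted of the list, stayed between 0.567 and 6.02 CPM and was lowest in the A libraries. The part of cell composition in the letter pattern was not tested. In bulk RNA a change in the number of cells of a type and a change in RNA per cell cannot be told apart.

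**Figure D3:**
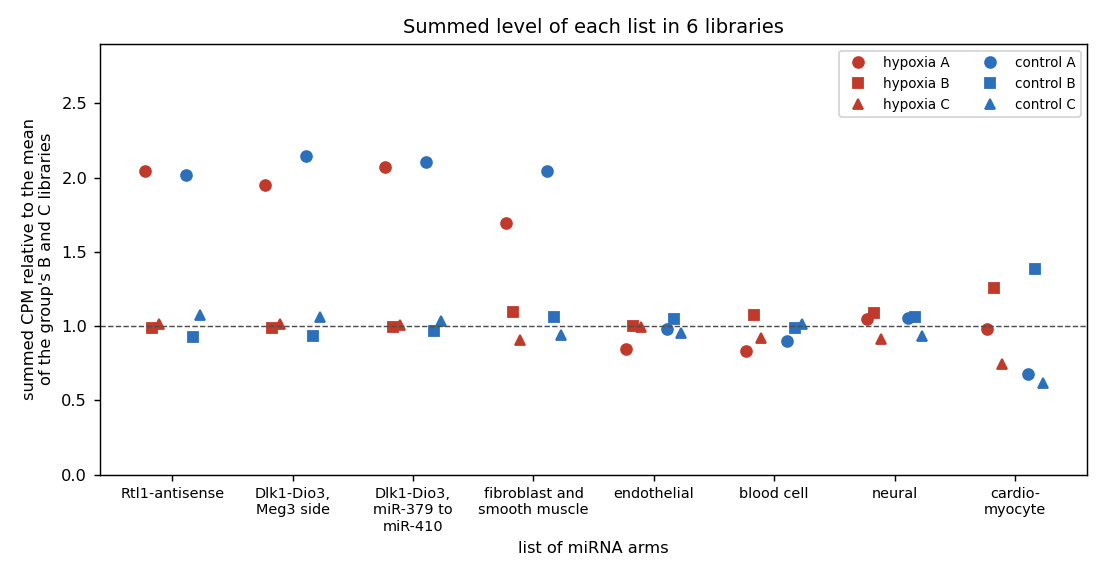
Summed CPM of each list of arms relative to the mean of the B and C libraries of the same group, hypoxia in red left of control in blue, with circles, squares and triangles for A, B and C. The A circles lie near 2 for the Rtl1-antisense arms, the other Dlk1-Dio3 lists and the fibroblast and smooth muscle markers of the controls, at 1.69 for those markers in hypoxia, and at or below 1.1 for the other lists.

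The miRNAs whose levels ran most like the members were in the same region. By Pearson's r over the 6 libraries between log2 CPM and the mean log2 CPM of the members, the nearest 5 were miR-411-5p (0.992), miR-1193-3p (0.991), miR-382-3p (0.990), and miR-299a-5p and miR-299b-5p (0.987 each), the last pair with identical values in every library. All 5 are arms of the miR-379 to miR-410 array, and 19 of the nearest 20 and 39 of the nearest 50 belonged to that list or the Meg3-side list. These correlations are descriptions over 6 libraries that share their letters. Over the 4 libraries without A, r was 0.617 for miR-411-5p, 0.973 for miR-1193-3p, 0.849 for miR-382-3p and 0.924 for miR-299a-5p and miR-299b-5p. Over all the nearest 20, r without A ran from -0.70 (miR-380-5p) to 0.999 (miR-379-3p). Among the members themselves the median r was 0.93 with all 6 libraries and 0.02 over the 4 libraries without A.

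Between hypoxia and control no member passed the test. edgeR's quasi-likelihood test with Benjamini-Hochberg adjustment over the 619 tested miRNAs called 0 of 10 members without a block, where it called 0 of 619 (0%). An unadjusted p under 0.05 was found for 0 of 10 members and for 42 of 619 miRNAs (6.79%). DESeq2 likewise called 0 of 10 members, with 0 of 10 at that unadjusted p, against 1 called and 45 at that p of the 1322 miRNAs it gave a p. limma-voom called 0 of 10, with 0 of 10 at that p, against 0 called and 43 at that p of 619. In the fit blocked on letter 0 of 10 members were called, against 14 of 619 miRNAs (2.26%), of which 6 were higher (0.969%) and 8 lower (1.29%) in hypoxia. There 1 of 10 members, miR-433-5p, had an unadjusted p under 0.05, as did 132 of 619 (21.3%).

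Of the 10 arms 5 lay above 0 and 5 below, with a median log2 fold change of -0.04, against 317 above and 302 below and a median of 0.01 over all tested miRNAs. The groups overlapped for all 10 arms, whereas they did not overlap for 12.9% of all tested miRNAs. Within the letters 3 arms (miR-433-5p, miR-127-5p and miR-136-3p) were higher in hypoxia in all 3 pairs, and 2 (miR-434-5p and miR-433-3p) lower in all 3, where 20.2% and 19.7% of all tested miRNAs were.

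The log2 fold change of miR-127-3p was -0.09 (SE 0.37, 95% interval -0.94 to 0.76, edgeR adjusted p = 0.99) without the block, and -0.11 (SE 0.11, interval -0.34 to 0.13, adjusted p = 0.65) with it. For miR-434-5p it was -0.26 (SE 0.36, adjusted p = 0.99) without the block and -0.23 (SE 0.11, interval -0.47 to 0.01, adjusted p = 0.26) with it. With the block, the 95% interval of the change thus reached neither a doubling nor a halving for these abundant arms, where a log2 change of 1 is a doubling. Without it the interval of miR-434-5p ran from -1.08 to 0.55.

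miR-433-5p had the largest change among the members, 0.52 (SE 0.55, interval -0.74 to 1.79, edgeR adjusted p = 0.97) without the block and 0.63 (SE 0.21, interval 0.17 to 1.09, unadjusted p = 0.013, adjusted p = 0.13) with it. Pair A differed by 0.25, pair B by 0.65 and pair C by 1.10. Its partner miR-433-3p gave -0.10 without the block and -0.11 with it (edgeR adjusted p = 0.71 with the block). miR-136-5p gave 0.12 without the block, with pair A at -0.15, pair B at -0.27 and pair C at 1.00, so that its sign rested on pair C. The other arms gave blocked log2 fold changes of -0.20 (miR-431-3p), -0.11 (miR-431-5p), 0.04 (miR-434-3p), 0.17 (miR-127-5p) and 0.21 (miR-136-3p). Without both A libraries the blocked values kept 5 arms above and 5 below 0, ranged from -0.16 to 0.88, and had a smallest edgeR adjusted p of 0.13.

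**Figure D4:**
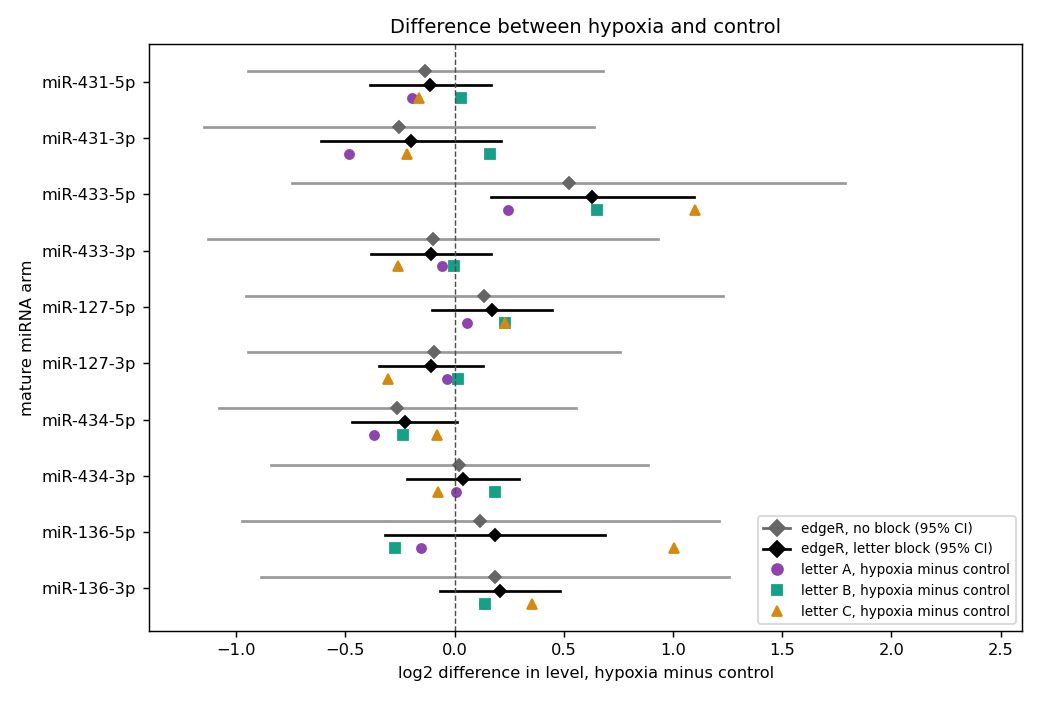
Log2 difference in level between hypoxia and control for each arm, with edgeR's estimate and 95% interval without a block (grey) and with the letter as a block (black) and the difference within each letter (coloured symbols). The black interval leaves 0 outside for miR-433-5p alone, before adjustment for the number of miRNAs tested.

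The other Dlk1-Dio3 arms shifted in both directions, with small medians per list. On the Meg3-side list 7 of 16 tested arms lay above 0 (median log2 fold change -0.04) and on the miR-379 to miR-410 list 35 of 59 (median 0.05), and edgeR called 0 of each without the block. With the block it called 1 of 16 and 3 of 59. miR-370-3p fell in that fit, with overlapping groups (55.5, 34.8 and 32.7 CPM in hypoxia A, B and C, against 107, 53.9 and 55.7 CPM in control, blocked log2 fold change -0.79, SE 0.13, edgeR adjusted p = 0.024). In that fit miR-543-3p (-0.67, SE 0.12) and miR-495-3p (-0.60, SE 0.12) also fell and miR-369-3p rose (0.63, SE 0.13), with edgeR adjusted p = 0.024, 0.032 and 0.041. The blocked fit called 0 miRNAs without the A pair, 0 without the C pair and 23 without the B pair. Each of these 4 calls thus ended without the A or the C pair. Fits on fewer libraries also detect less, and this was not separated out. The most abundant arms of these lists gave blocked log2 fold changes of -0.02 (miR-379-5p), 0.03 (miR-411-5p), -0.29 (miR-541-5p), -0.11 (miR-337-5p) and 0.23 (miR-341-3p), none past the test. Whether the Rtl1-antisense arms differed from these in their response was not tested.

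The arm ratio within a hairpin does not depend on library size or scaling. Each hairpin kept its dominant arm in 6 of 6 libraries, the 3p arm for miR-433, miR-127 and miR-136 and the 5p arm for miR-431 and miR-434. Over the 189 hairpins with both arms tested, the 5p arm was the higher one in 102, and the median absolute log2 ratio was 3.05.

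miR-127 was the most one-sided. Its 3p arm exceeded its 5p arm 43.8-fold, 49.7-fold and 47.4-fold in hypoxia A, B and C, against 46.6-fold, 57.7-fold and 68.7-fold in control A, B and C. Control A lay within the hypoxia range and control B and C above it, and the mean log2 ratio of 5p to 3p was -5.55 ± 0.09 in hypoxia and -5.83 ± 0.28 in control (SD, n = 3 each).

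The miR-433 arms were less unequal in the 3 hypoxia libraries, a difference that did not pass adjustment. The 3p arm exceeded the 5p arm 13.2-fold, 12.6-fold and 12.3-fold in hypoxia A, B and C, against 16.3-fold, 19.8-fold and 31.5-fold in control A, B and C, so the groups did not overlap. The groups did not overlap for 35 of 189 hairpins (18.5%), and among the 5 member hairpins for miR-433 alone. The difference in log2(5p/3p) was 0.77 (SE 0.27, 95% interval 0.15 to 1.40, unadjusted p = 0.021), which did not pass after limma's p was adjusted over the 189 hairpins (adjusted p = 0.26, and 0.30 with the letter block). Without the block 24 of the 189 hairpins had an unadjusted limma p under 0.05. The control ratios rested on 135, 44 and 45 counts of miR-433-5p, and without control C the difference was 0.50.

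The remaining hairpins showed no separation. For miR-431 the 5p arm exceeded the 3p arm 8.59-fold, 7.41-fold and 8.61-fold in hypoxia A, B and C and 7.04-fold, 8.11-fold and 8.29-fold in control A, B and C, the steadiest of the 5 ratios (within-group SD 0.13 on the log2 scale). For miR-434 the 5p arm exceeded the 3p arm 3.14-fold, 3.59-fold and 3.11-fold in hypoxia and 4.08-fold, 4.81-fold and 3.12-fold in control. For miR-136, the most evenly split, the 3p arm exceeded the 5p arm 2.70-fold, 2.92-fold and 1.68-fold in hypoxia and 2.22-fold, 2.20-fold and 2.64-fold in control. Hypoxia C was the low value of miR-136.

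Differences in log2(5p/3p) between hypoxia and control were 0.28 (SE 0.23) for miR-127, 0.07 (SE 0.21) for miR-431, -0.27 (SE 0.23) for miR-434 and -0.02 (SE 0.26) for miR-136, with limma adjusted p from 0.64 to 0.97. limma called 0 of the 5 member hairpins, where it called 2 of 189 (1.06%), miR-96 and miR-182, which were named after their values were seen. With the letter block it called 0 of 189 (0%), with 28 at an unadjusted p under 0.05. Within the letters the ratio moved the same way in all 3 pairs for 3 of the 5 hairpins, upward for miR-433 and miR-127 and downward for miR-434, and for 40.7% of the 189.

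**Figure D5:**
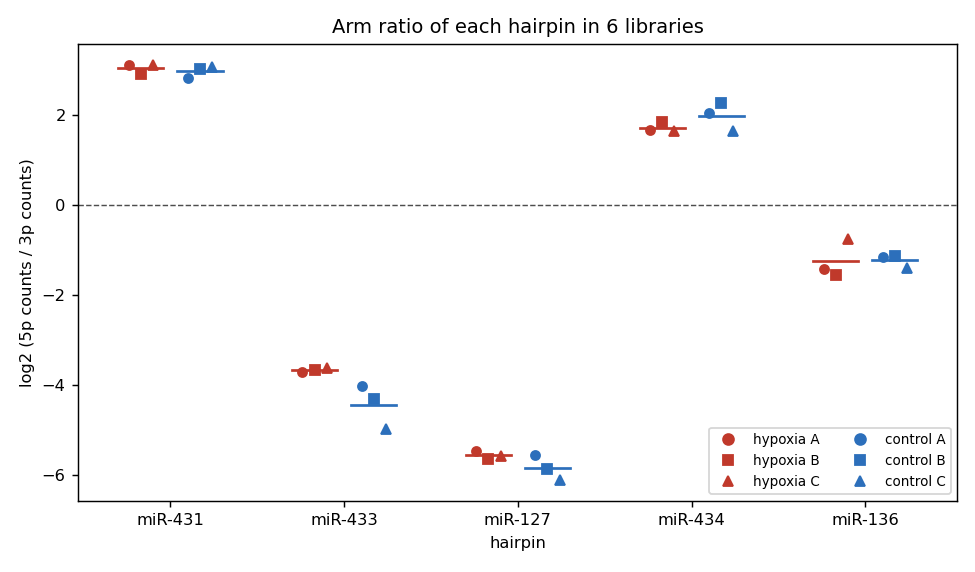
Log2 ratio of 5p to 3p counts for each hairpin, hypoxia libraries in red left of control libraries in blue, with circles, squares and triangles for A, B and C and lines for group means; the dashed line marks equal arms. The hypoxia libraries of miR-433 correspond to 12.3-fold to 13.2-fold more 3p than 5p and lie above all 3 control libraries, while the groups of the other hairpins overlap.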

How the data were processed

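The values are raw read counts per known mature miRNA, whole numbers deposited by the authors with 1 column per library. The genome build mm10 and the tools bcl2fastq 2.0 and DESeq2 are listed in the submitters' processing notes, which state no roles here. How reads were aligned and counted, and how multiply matching reads were shared, was not stated (not given in the sources used here). A table of predicted miRNAs was not used.

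In R 4.3.3 the whole table was filtered with filterByExpr (minimum count 10, 619 of 1978 rows kept), scaled by TMM and fitted with edgeR 4.0.16 (quasi-likelihood test, Benjamini-Hochberg, 0.05). SE is the absolute log2 fold change over the square root of F. Arm ratios, log2((5p + 0.5)/(3p + 0.5)), were fitted with limma 3.58.1. Alternatives used DESeq2 1.42.0, limma-voom, other scalings, no filter, left-out libraries and the column letter as a replicate block. By the rule that every same-letter correlation exceed 0.1 the letters paired the libraries, so this pairing comes from column names and values. The highest unlike-letter correlation, 0.12 for hypoxia B with control C, also exceeded 0.1, against 0.43 for hypoxia B with control B. By chi-square per degree of freedom hypoxia B was nearer control C (120) than control B (141), so the pairing of B is the less certain. The smallest chi-square per degree of freedom between 2 libraries was 85.9, so none was a copy. The scripts were tested on simulated data.

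The members, lists and named-gene rule (all members, the 3 most abundant and any called arm of each Dlk1-Dio3 list, the 5 miRNAs most like the member mean) were chosen with earlier results of these data known. Annotation was GENCODE M21, with sequences from RefSeq GRCm38.p6.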

Additional observations from a re-analysis of the deposited data

How the results depend on the processing

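No member was called under any of 16 alternatives. Over all tested miRNAs the count called was 0 as reported, 4 with no filter, 1 with DESeq2 and 14 with the replicate block, and from 0 to 23 with libraries left out (with the replicate block, 23 without the B pair and 0 without the A pair or the C pair). Leaving out single libraries or pairs gave log2 fold changes of -0.47 to 0.22 for miR-431-5p, -0.54 to 0.21 for miR-431-3p, 0.01 to 1.35 for miR-433-5p, -0.65 to 0.36 for miR-433-3p, -0.40 to 0.73 for miR-127-5p, -0.55 to 0.27 for miR-127-3p, -0.61 to 0.16 for miR-434-5p, -0.37 to 0.39 for miR-434-3p, -0.24 to 0.74 for miR-136-5p and -0.36 to 0.74 for miR-136-3p. Their directions, except that of miR-433-5p, thus depended on which library was left out. miR-434-3p also turned to -0.0059 with upper-quartile scaling and to -0.00022 with no filter. With the replicate block, miR-434-3p was -0.061 without pair B and miR-136-5p -0.22 without pair C. The replicate block changed no call of a member.

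Arm ratio calls numbered 2 as reported, 0 with pseudocount 0.1, 1 with pseudocount 5, 6 with at least 100 counts in every library, 0 with the replicate block and 0 to 2 with libraries left out. The 100-count filter removed miR-431 and miR-433. Left-out libraries, and left-out letters, which were added after seeing the data, gave -0.038 (without both A libraries) to 0.17 for miR-431, -0.35 to 0.18 for miR-136, 0.48 to 1.01 for miR-433, 0.15 (without control C) to 0.43 (without control A) for miR-127 and -0.44 (without control C) to -0.12 (without control B) for miR-434. The summed level moved by less than its within-group SD in all its alternatives. Scaling by library size only moved the median of all tested miRNAs to 0.08. The causes of these changes were not tested. Depth limits miR-433-5p and miR-431-3p most, with as few as 44 and 67 counts in a library.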
